A study of Homo sapiens with 2 samples.

Results

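Lung and airway lineage genes were examined as a set of 9 genes listed by symbol: 6 transcription factors (NKX2-1, FOXA1, FOXA2, GATA6, KLF5 and ELF3) and 3 products of alveolar type II cells (LAMP3, NAPSA and SLC34A2). Of the 9, 8 have a row among the 27655 genes of the authors' deposited table, and SLC34A2, an apical sodium-phosphate cotransporter, was not analysed here. The cells were PC9-BrM3, a brain-metastatic derivative of the EGFR-mutant human lung adenocarcinoma line PC9, sequenced as poly-A RNA. One GEO sample carried a hairpin against PCDH1 (shPCDH1, PCDH1 knockdown) and the other a control hairpin (shNC, genotype given as WT), and both were kept in routine culture in serum-supplemented RPMI1640. Its deposited comparison sets code 8 against code 7, and no label ties either code to shPCDH1 or shNC. Differences are therefore given as group 8 over group 7.

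In the lung, cell identity is set by a small circle of transcription factors. NKX2-1, a homeobox protein also called TTF-1, specifies the lung field and drives surfactant genes in alveolar type II cells. FOXA1 and FOXA2 are forkhead pioneer factors that open chromatin for it, and GATA6 is a zinc finger factor of foregut endoderm. KLF5 and ELF3 are a Krüppel-like and an ETS-family regulator of epithelial cells. Alveolar type II cells store surfactant in lamellar bodies, where the membrane protein LAMP3 and the aspartic protease napsin A (NAPSA), which trims surfactant protein B, are found. TTF-1 and napsin A are stained together in the diagnosis of lung adenocarcinoma.

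The upstream 250 bases of 4 of the 5 members that passed the test are shown because these genes split in direction, FOXA1 and KLF5 being lower and GATA6 and NAPSA higher in group 8. Sequences are from RefSeq on GRCh38.p14, 5′ to 3′ on the gene's strand, at the start site nearest to the deposited gene start. RefSeq promoters were matched for 7 of the 9 genes, and none for FOXA2 and LAMP3. Capitals mark matches, searched on both strands, to any of 5 short motifs. The first forkhead motif searched was spelled TGTTTAC. A second forkhead spelling that was also searched was TGTTTGC. The motif of NKX2 homeobox proteins was searched as CAAGTG. The motif of GATA zinc finger proteins was searched as AGATAA. The GC box bound by many general factors was searched as GGGCGG.
FOXA1 (chr14:37595250-37595499, minus strand): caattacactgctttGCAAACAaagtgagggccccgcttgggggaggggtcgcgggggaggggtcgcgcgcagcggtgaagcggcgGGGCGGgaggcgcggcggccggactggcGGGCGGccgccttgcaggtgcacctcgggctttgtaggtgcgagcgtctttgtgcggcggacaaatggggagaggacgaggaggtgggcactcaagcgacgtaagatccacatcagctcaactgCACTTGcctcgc
KLF5 (chr13:73054726-73054975, plus strand): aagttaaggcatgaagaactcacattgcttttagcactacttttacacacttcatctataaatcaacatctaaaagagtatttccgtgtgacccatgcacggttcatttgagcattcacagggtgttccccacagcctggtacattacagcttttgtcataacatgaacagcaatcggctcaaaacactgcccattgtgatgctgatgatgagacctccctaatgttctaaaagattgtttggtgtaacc
GATA6 (chr18:22169339-22169588, plus strand): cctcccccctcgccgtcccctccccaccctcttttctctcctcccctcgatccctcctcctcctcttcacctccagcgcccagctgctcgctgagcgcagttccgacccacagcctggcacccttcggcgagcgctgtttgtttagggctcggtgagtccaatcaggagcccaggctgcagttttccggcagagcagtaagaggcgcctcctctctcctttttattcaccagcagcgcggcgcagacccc
NAPSA (chr19:50365640-50365889, minus strand): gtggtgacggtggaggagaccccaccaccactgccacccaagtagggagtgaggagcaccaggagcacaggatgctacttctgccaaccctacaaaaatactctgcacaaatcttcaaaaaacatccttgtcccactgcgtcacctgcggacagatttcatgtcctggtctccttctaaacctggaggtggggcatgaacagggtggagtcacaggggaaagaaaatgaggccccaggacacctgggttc

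The FOXA1 window held 1 match to the second forkhead spelling, 1 to the NKX2 motif and 2 to the GC box, with no overlap between them. Over 35116 promoter windows of the same length, 3.23% held that forkhead spelling, 9.50% the NKX2 motif and 42.6% the GC box. The first forkhead spelling was in 2.98% of all windows and the GATA motif in 9.17%, and neither was in the 4 shown. The KLF5, GATA6 and NAPSA windows held none of the 5 motifs, which says only that these letters are not in these windows. KLF5 and NAPSA each have a second RefSeq start site farther from the deposited start. The second KLF5 window (chr13:73058755-73059004, plus strand) held 1 match to the NKX2 motif and 2 to the GC box at a GC content of 70.8%, and the second NAPSA window held no match at 55.6%. The printed windows of KLF5, GATA6 and NAPSA had GC contents of 40.8%, 64.4% and 54.4%, that of FOXA1 67.2%, and the median over all windows 58%. The RefSeq start site of FOXA1 lies 810 bases inside the deposited gene, that of GATA6 146 and that of NAPSA 191, while that of KLF5 is the deposited start itself.

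PCDH1, the targeted protocadherin, had a deposited log2 fold change of -1.38 ± 0.14 and an adjusted p of 1.76e-20. The error, here and below, is a standard error worked back from the deposited p-value on the assumption of a Wald test. The value does not assign the codes to the labels. The header lists 6 library codes, but the 20 columns of values per library or group were not used, because no label ties them to a sample. Levels and depth per library are therefore not given, and the presence or absence of a cell type marker was not read. GEO lists 1 sample per group, so the deposited p-values measure only the spread between these libraries, which may be technical.

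The lineage genes moved in both directions. The authors' deposited table called 5 of the 8 members at an adjusted p under 0.05, 3 higher (GATA6, LAMP3 and NAPSA) and 2 lower (FOXA1 and KLF5) in group 8. Over all 27655 genes, 14.1% were called, 6.78% higher and 7.28% lower. Among the 13609 protein-coding genes whose adjusted p was below 1, which all 8 members are among, 26.0% were called. The members were chosen with earlier results of these data known, so no excess is read from these shares. The median deposited log2 fold change of the 8 members was 0.53, beside 0.017 for all protein-coding genes.

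**Figure D1:**
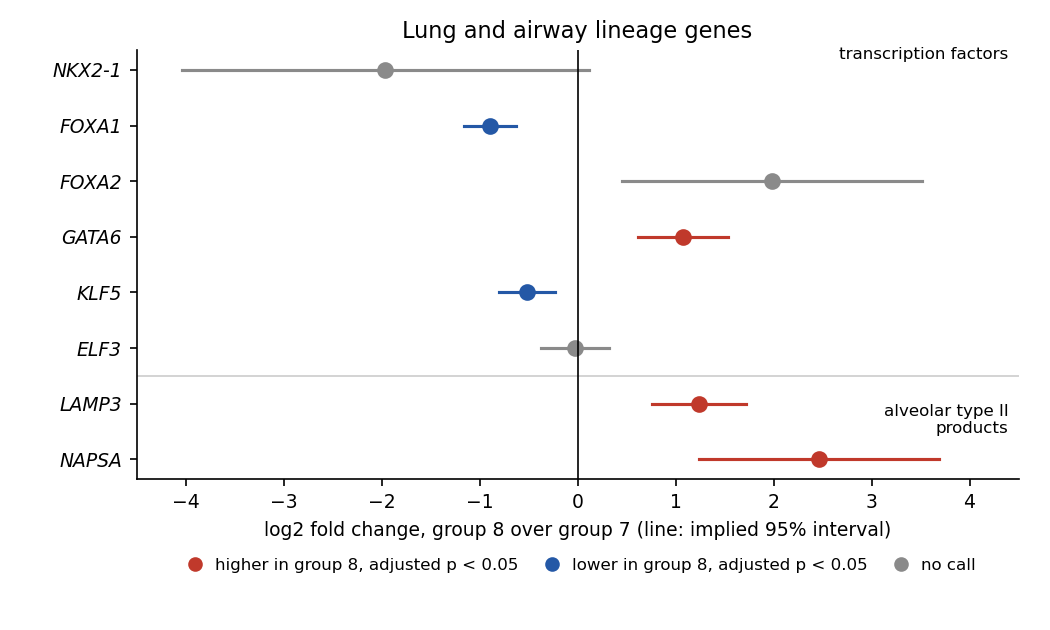
Deposited log2 fold change (x axis, group 8 over group 7) of the 8 members, with the 95% interval from the implied standard error as a line; colours give the authors' call at an adjusted p under 0.05. GATA6, LAMP3 and NAPSA lie right of 0, FOXA1 and KLF5 left of it, and NKX2-1 and FOXA2 have the widest intervals.

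Among the transcription factors, 1 was higher and 2 lower out of 6. FOXA1 fell to 53.8% of its group 7 level in group 8, with a deposited log2 fold change of -0.89 ± 0.14 and an adjusted p of 3.34e-09. That is 1.86-fold lower, with a 95% interval of 1.54 to 2.24. It was the most firmly called member, ranking 343 of all genes by p. KLF5 was 1.43-fold lower in the authors' deposited table (1.18 to 1.74), at -0.52 ± 0.14 and an adjusted p of 0.00314. GATA6 rose 2.11-fold in group 8 (1.53 to 2.91), at a deposited log2 fold change of 1.08 ± 0.24 and an adjusted p of 8.53e-05.

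The other 3 factors had no call, and their errors differed in width. ELF3 had a deposited log2 fold change of -0.027 ± 0.18 and an adjusted p of 0.943. Its interval, 0.773-fold to 1.25-fold, covers small changes in both directions and leaves out changes as large as the estimates of the called members. NKX2-1 had a deposited log2 fold change of -1.96 ± 1.06, the largest standard error of the 8. Its interval runs from 0.061-fold to 1.09-fold in group 8 over group 7, so neither a strong decrease nor no change lies outside it, and its adjusted p was 0.186. FOXA2 had 1.99 ± 0.78 in the authors' deposited table, or 3.96-fold (1.37 to 11.4), with an unadjusted p of 0.0109. Its adjusted p of 0.0505 lies just past the threshold, and became 0.0486 when p-values were adjusted over protein-coding genes alone and 0.077 over every deposited p-value.

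FOXA1 and FOXA2 are close relatives, and their deposited fold changes were of opposite sign. FOXA1 minus FOXA2 was -2.88 ± 0.79 on the log2 scale, with a 95% interval of -4.43 to -1.33 that takes the errors of the 2 genes as independent. GATA6 minus FOXA1, both called, was 1.97 ± 0.27 (1.44 to 2.51). They were called in opposite directions, so an interval on that side of 0 was fixed by the choice of pair. KLF5 minus ELF3 was -0.49 ± 0.23 (-0.93 to -0.042). These pairs were set side by side with earlier results known, and no p is given.

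Both measured alveolar type II products rose. NAPSA was 5.52-fold higher in group 8, with an interval of 2.37 to 12.9, a deposited log2 fold change of 2.47 ± 0.62 and an adjusted p of 0.000892. LAMP3 was 2.36-fold higher (1.69 to 3.29), at 1.24 ± 0.24 and an adjusted p of 9.28e-06 in the authors' deposited table. NAPSA minus LAMP3 was 1.23 ± 0.67, and its interval of -0.085 to 2.54 includes 0, so which of them changed more is not settled. NKX2-1, which activates NAPSA in lung cells, minus NAPSA was -4.43 ± 1.23 (-6.84 to -2.02), although NKX2-1 itself had no call. They have the lowest and the highest deposited fold change of the members, so a wide gap was fixed by the choice of pair. A link between them was not tested.

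**Figure D2:**
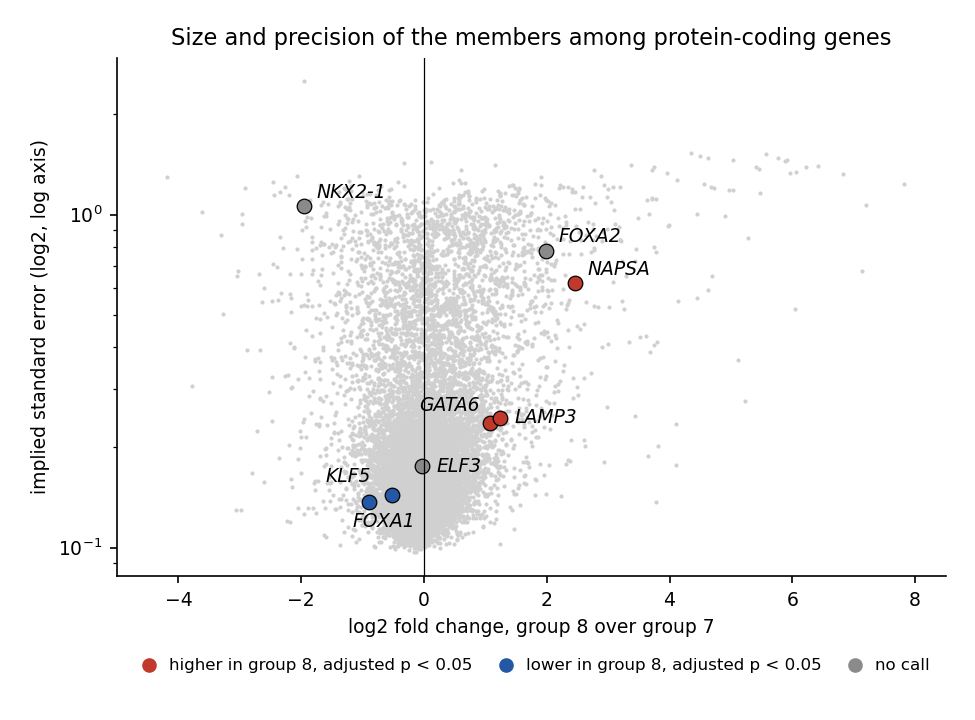
Deposited log2 fold change (x axis) against its implied standard error (y axis, log scale) for the 13609 protein-coding genes whose adjusted p was below 1 (grey dots), with the 8 members coloured by call. NKX2-1, FOXA2 and NAPSA have standard errors of 0.62 to 1.06, and the other 5 members 0.14 to 0.24.

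The members fall into 2 ranges of precision. The median implied standard error of the protein-coding genes was 0.18, with quartiles of 0.14 and 0.26. NKX2-1 stood at percentile 98.5 of that distribution, FOXA2 at 94.1 and NAPSA at 91.2. LAMP3 and GATA6 stood at 72.8 and 71.3, ELF3 at 50.4, KLF5 at 25.5 and FOXA1 at 19.5. The 3 members with the largest deposited changes were thus the 3 measured least precisely.

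Several members share their locus with other genes, and the library protocol in the labels does not mark strand. All 8 have the same start and end in GENCODE 29 (GRCh38) as in the deposited table. NAPSA (chromosome 19, 50358477 to 50365830, minus strand) lies wholly inside NR1H2, which encodes the liver X receptor beta, on the other strand, but shares 0 exonic bases with it. NR1H2 fell, at a deposited log2 fold change of -0.65 ± 0.14, opposite to NAPSA. FOXA1 (chromosome 14, 37589984 to 37596059, minus strand) overlaps TTC6 on the other strand by 213 bases, with 16 exonic bases shared, 0.40% of its exonic length. TTC6 had -0.86 ± 0.32 in the authors' deposited table and was also called lower, with an adjusted p of 0.0347.

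Antisense RNAs cover more of 3 other factors. For GATA6 (chromosome 18, 22169443 to 22202528, plus strand), GATA6-AS1 covers 6.08% of the exonic bases and had a deposited 0.50 ± 0.88 with no call, and AC091588.3, not analysed here, covers 8.14%. For ELF3 (chromosome 1, 202007945 to 202017188, plus strand), ELF3-AS1 covers 9.23% and had 0.26 ± 0.23 with no call in the authors' deposited table. AL691482.3, on the strand of ELF3 itself, also covers 9.23% and had -0.44 ± 0.97 with no call. For NKX2-1 (chromosome 14, 36516392 to 36521149, minus strand), NKX2-1-AS1, not analysed here, covers 12.7%. The labels do not say whether reads from the antisense stretches were assigned by strand. KLF5 (chromosome 13, 73054976 to 73077542, plus strand) and LAMP3 (chromosome 3, 183122213 to 183163839, minus strand) overlap no other annotated gene. FOXA2 (chromosome 20, 22581005 to 22585455, minus strand) shares 2.69% of its exonic bases with AL121722.1 on the same strand.

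Sharing of sequence with other genes was counted in words of 50 transcript bases on either strand. FOXA1 and KLF5 shared 0% of their words with transcripts of other genes, LAMP3 0.65% and FOXA2 0.86%. NAPSA shared 4.45%, mostly with the neighbouring pseudogene NAPSB, so a small part of its reads could be placed in either gene. NAPSB had a deposited log2 fold change of 0.28 ± 0.76 with no call. NKX2-1, GATA6 and ELF3 shared 11.6%, 11.9% and 16.5%, with NKX2-1-AS1, AC091588.3 and ELF3-AS1 as the leading partners.

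Protein-coding genes with a start site within 500 kb of each member were compared with it. Of all 15867 protein-coding genes, 22.3% were called. Counts for members with few neighbours are too small to set against that share. NAPSA had 28 such neighbours, of which 2 were called higher and 9 lower in group 8, with a median deposited log2 fold change of -0.45. Among the lower ones were the DNA polymerase delta gene POLD1 at -0.82 ± 0.13, and the stress-response factor ATF5 at -1.52 ± 0.16. For LAMP3, 2 of 7 were called, both higher: DCUN1D1 at 0.48 ± 0.15 and KLHL24 at 1.53 ± 0.24. FOXA1 and NKX2-1 lie 1075 kb apart on chromosome 14. One of 3 neighbours of each was called, TTC6 for FOXA1 and the paired-box factor gene PAX9, at -0.60 ± 0.19 in the authors' deposited table, for NKX2-1. No neighbour was called for FOXA2 (of 1), GATA6 (of 3) or KLF5 (of 4), and for ELF3 1 was higher and 1 lower of 13.

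**Figure D3:**
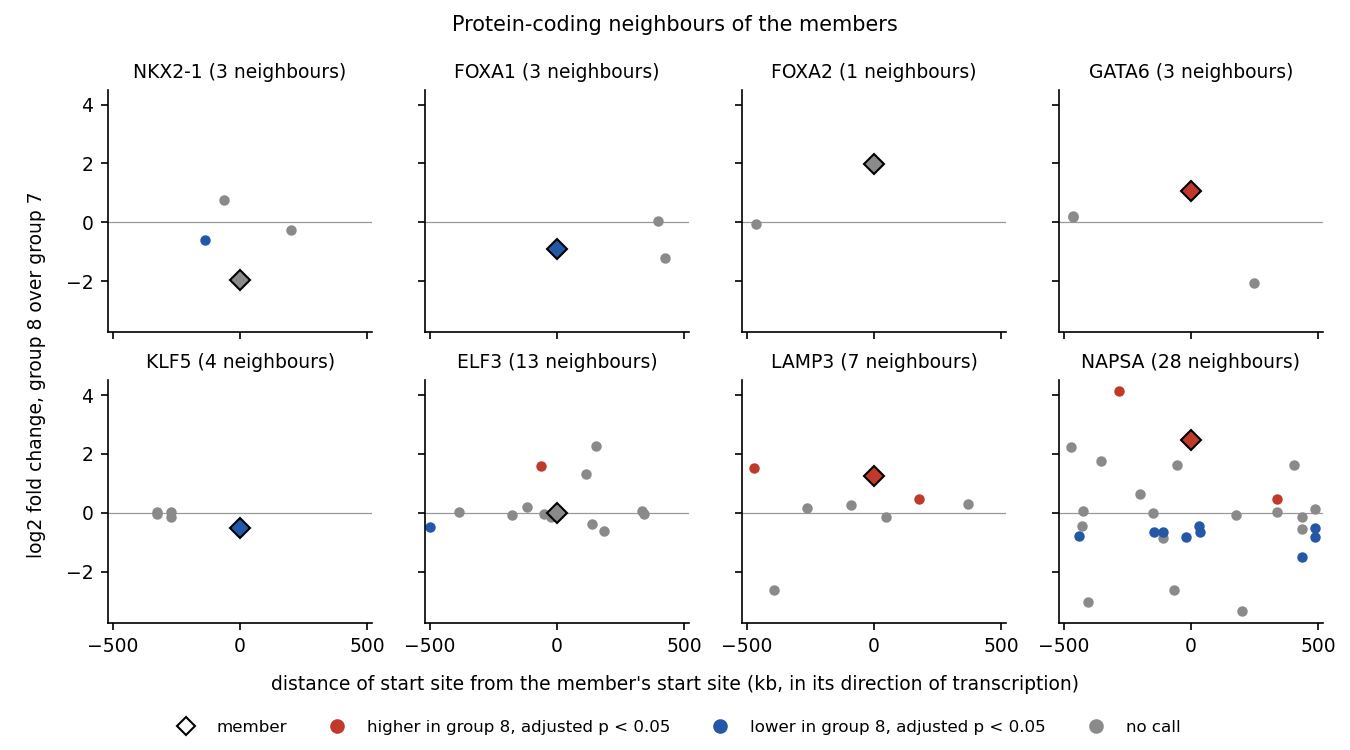
Deposited log2 fold change (y axis, group 8 over group 7) of each member (diamond) and of protein-coding genes with a start site within 500 kb of its own (dots; x axis, distance in kb), coloured by call. NAPSA lies above 0, and 9 of its 11 called neighbours, of 28 in all, lie below 0. Of all protein-coding genes, 22.3% were called.

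Relatives of the members were taken from the authors' transcription factor annotation. Of 38 forkhead genes in the authors' deposited table, 2 were higher and 7 lower, FOXA1 among the lower. FOXQ1 had -1.08 ± 0.15, FOXC1 -0.87 ± 0.13 and FOXJ1, the master regulator of motile cilia, -0.90 ± 0.33, while FOXN2 was higher at 1.17 ± 0.28. Of 12 genes with GATA-type zinc fingers, 3 were higher and 2 lower: besides GATA6, GATA5 rose at a deposited 2.98 ± 0.90 and GATA3 fell at -0.51 ± 0.15. Of 22 ETS genes, 3 were higher and 2 lower, with SPDEF, a goblet cell factor, at -1.84 ± 0.25 and ETS1 at 0.87 ± 0.17. Of 507 C2H2 zinc finger genes, the family of KLF5, 90 were higher and 45 lower, and of 114 homeobox genes, that of NKX2-1, 10 were higher and 7 lower. The shares called were 23.7%, 41.7%, 22.7%, 26.6% and 14.9% in that order, beside 22.3% of all 15867 protein-coding genes. These shares count genes with an adjusted p of 1, such as 12 of the forkhead and 28 of the homeobox genes, as not called. That value can stand for a missing one, so such genes are not read as unchanged.

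Other lung, airway and related genes, 126 distinct genes in 9 lists, were called in 31.0% of cases, 13 higher and 26 lower. That stands beside the 22.3% of all protein-coding genes, both counting genes with an adjusted p of 1 as not called. The lists were chosen with earlier results of these data known, so no excess is read from the shares. Of 27 other lung lineage transcription factors in the authors' deposited table, 3 were higher and 8 lower (40.7% called), with a median of -0.47. This and the later list medians count every measured gene, however wide its error. By adjusted p, SPDEF led the lower ones, followed by the homeobox factor IRX3 at -0.87 ± 0.16, while the FGF-responsive ETV5, at 0.79 ± 0.13, and the grainyhead factor GRHL1, at 0.83 ± 0.15, were higher. TFCP2L1, next by adjusted p, was higher at 1.09 ± 0.20. CEBPA, a differentiation factor of alveolar type II cells, was lower at -0.90 ± 0.22, and the T-box factor TBX2 at a deposited -1.50 ± 0.46. SOX2 had the largest deposited change of the 27, at -4.25 ± 1.59, with an unadjusted p of 0.00752 in the authors' comparison and no call. Its adjusted p can stand for a missing value.

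Further alveolar type II genes were called in 12.5% of cases. The share over all protein-coding genes, 22.3%, stands beside this and the later lists. Of 16 in the authors' deposited table, 1 was higher and 1 lower, with a median of 0.14. These were SLC22A31 at 1.63 ± 0.23 and the lysolipid transporter gene MFSD2A at -0.90 ± 0.26. The 5 surfactant protein genes had no call, and their implied standard errors ran from 0.84 for SFTPA1 to 3.66 for SFTPB. ABCA3, the lamellar body lipid transporter, had a deposited 0.15 ± 0.17, and its interval of -0.18 to 0.49 leaves out changes as large as that of LAMP3. SFTPA1 and SFTPA2 are near-identical copies whose reads can be split.

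Of 13 alveolar type I genes, 0 were higher and 4 lower in the authors' deposited table (30.8% called), with a median of -0.33. GPRC5A, a lung-enriched orphan receptor, had -0.81 ± 0.10, EMP2 -0.54 ± 0.12, caveolin 1 (CAV1) -0.41 ± 0.12 and SPOCK2 -0.51 ± 0.19. Airway secretory genes split, 4 higher and 3 lower of 14 (50% called), with a median of 0.40. The gel-forming mucin MUC5B, at a deposited -2.79 ± 0.17, fell, and so did the mucin-folding protein AGR2, which was 4.01-fold lower. The membrane mucin MUC1, at 1.23 ± 0.17, and WFDC2, at 1.14 ± 0.18, were higher. Of 11 ciliated genes, 1 was higher and 1 lower (18.2% called), with a median of 0.26. These were DNAI1 at 1.75 ± 0.55 and CAPS at -1.15 ± 0.23. FOXJ1, called lower, was counted among the transcription factors and not in this list. Of 9 basal genes, 0 were higher and 2 lower (22.2% called), with a median of -0.36. The lower ones were TRIM29 at -1.06 ± 0.19 and KRT15 at -1.02 ± 0.22.

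Genes of the gastrointestinal lineage, some of which rise in mouse lung tumours that lose Nkx2-1, were called in both directions. Of 10 in the authors' deposited table, 2 were higher and 2 lower (40% called), with a median of -0.82. GATA5 and ONECUT2, at 1.17 ± 0.18, were higher, and FOXQ1 and the trefoil factor TFF1, at -2.48 ± 0.55, were lower. HNF4A, a regulator of gut and liver identity, had no call, with an adjusted p that can stand for a missing value. The list's median counts HNF4A at 2.22 ± 3.45 and CDX2 at -1.08 ± 3.07. It also counts TFF2 at -2.63 ± 3.66 and VIL1 at -2.89 ± 2.46, so it gives the list no clear direction. Among 11 paralogs of LAMP3, NAPSA and SLC34A2, 0 were higher and 3 lower (27.3% called), with a median of -0.18. They were the lysosomal protease gene CTSD at a deposited -1.01 ± 0.21, the phosphate transporter gene SLC34A3 at -0.91 ± 0.24 and BACE2 at -0.43 ± 0.15. LAMP1, the abundant lysosomal relative of LAMP3, had -0.18 ± 0.10 with no call. Among 16 KLF and ETS relatives, 2 were higher and 3 lower (31.25% called), with a median of -0.047. The called ones were led by KLF2 at -1.60 ± 0.29, ETS1, KLF10 at 0.66 ± 0.14 and KLF16 at -0.70 ± 0.17.

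**Figure D4:**
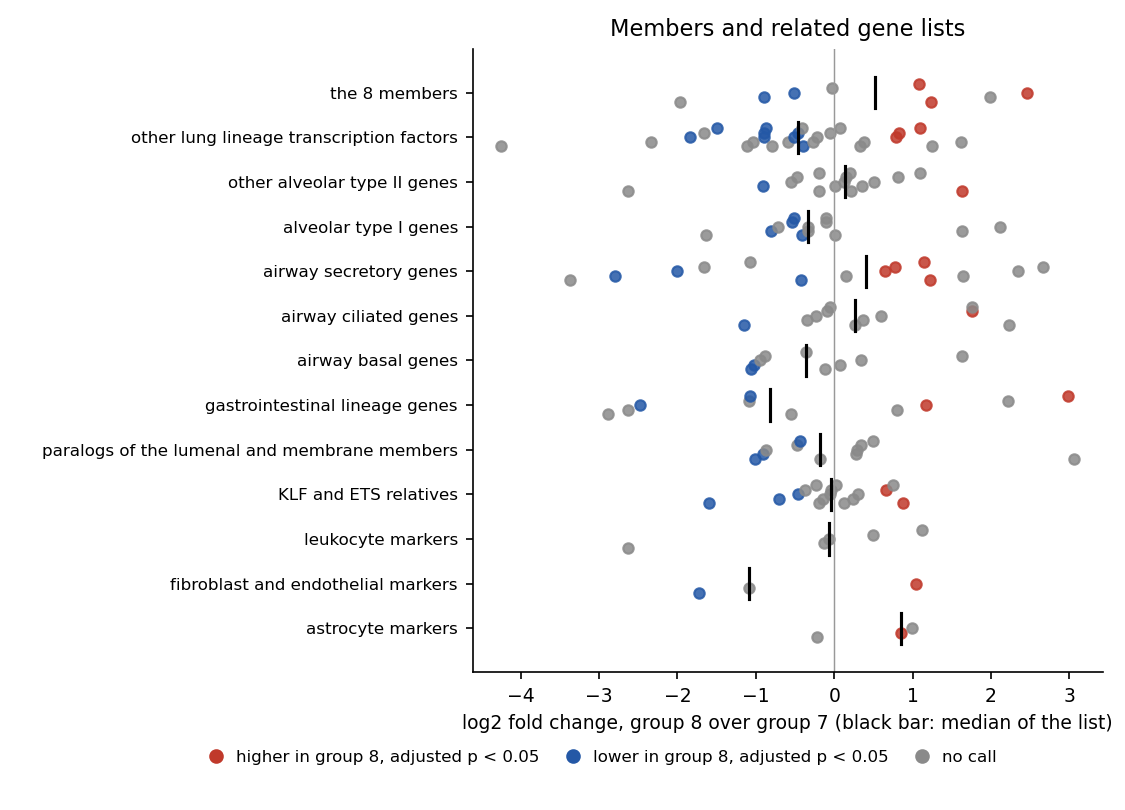
Deposited log2 fold change (x axis, group 8 over group 7) of the 8 members and of each measured gene of 12 lists (y axis, points spread vertically for legibility), coloured by call, with the list's median as a bar. Alveolar type I genes, basal genes and paralogs have calls on the lower side alone, and astrocyte markers on the higher side alone. Leukocyte markers have none, and the members and every other list have calls on both sides.

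Markers of other cells gave these values, whose part in the members' changes was not tested. LAMP3 also marks mature dendritic cells. Of 5 leukocyte markers in the authors' deposited table, 0 were called, with the CD45 gene PTPRC at -0.12 ± 0.69 and the monocyte gene CD14 at -0.062 ± 0.50. Of 3 fibroblast and endothelial markers, 1 was higher and 1 lower, COL1A1 at 1.04 ± 0.17 and PECAM1 at -1.73 ± 0.63. Of 3 astrocyte markers, 1 was higher, the glutamate transporter gene SLC1A3 at a deposited 0.85 ± 0.18, while GFAP had -0.22 ± 2.42 with no call.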

How the data were processed

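Poly-A RNA-seq of PC9-BrM3 cells was deposited as 1 table of the authors' own comparison. The submitters' processing notes name DESeq2 1.20.0, used by the authors, beside featureCounts 1.5.0-p3, HISAT2 2.0.5 and CASAVA, with no settings. Their genome build is not given in the sources used here. Each of the 27655 gene identifiers is in GENCODE 29 (GRCh38), 27651 of them with the same start and end. The table holds the authors' log2 fold change of group 8 over group 7, and the p-value and adjusted p-value, per the file headers. Gene coordinates and lengths in bases are also as deposited. The 20 columns of values per library or group were not used, so depth is not given. No fit across genes was made here, and calls are the authors' adjusted p under 0.05.

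The standard error is the absolute log2 fold change over the normal quantile of the two-sided p, which assumes a Wald test that no source states. Intervals are 95%. Computations used Python 3.11.15, pandas 2.3.3 and SciPy 1.17.1. The standard error and the adjustment of p-values were checked on data simulated under a Wald test, so that assumption itself was not tested. The members and lists were chosen with earlier results of these data known. Named genes are the members, their overlapping, neighbouring or paralogous genes, and up to 4 called genes per list by adjusted p. CEBPA, TBX2, TFCP2L1, SOX2, CDX2, TFF2, VIL1, the surfactant genes, ABCA3, HNF4A, GFAP and LAMP1 were chosen after their values were seen. So were the family and neighbour examples. Alternatives were a threshold of 0.01 or 0.10 on the adjusted p, a floor of 0.5 or 1 on the size of the log2 fold change, adjustment over every deposited p-value or protein-coding genes alone, and centring on the protein-coding median. Leaving out libraries was not run, since no label ties a library column to a sample.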

Additional observations from a re-analysis of the deposited data

How the results depend on the processing

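The same 5 members (FOXA1, GATA6, KLF5, LAMP3 and NAPSA) were called at an adjusted p under 0.01, with a floor of 0.5 on the size of the log2 fold change, and with adjustment over every deposited p-value. FOXA2 joined them, making 6, at an adjusted p under 0.10 and with adjustment over protein-coding genes alone. With that floor at 1, 3 members stayed called, all higher (GATA6, LAMP3 and NAPSA), since FOXA1 and KLF5 fell by 0.89 and 0.52 on the log2 scale. Of the 126 related genes, 39 were called, 18 of them at a floor of 1 (7 higher and 11 lower), and 32 to 45 under the other alternatives. Setting the protein-coding median to 0 shifted each member by 0.017 and changed no direction or call. Leaving out single libraries was not run, because no label ties the library columns to a sample and they were not used, so whether 1 library decides a value was not tested. The wide errors of NKX2-1, FOXA2 and NAPSA limit what can be said of their size.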
